A study of Mus musculus with 11 samples.

Results

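The oligoadenylate synthetase (Oas) family was examined in cells sorted from the striata of mice in which the transcription factor NF-Y had been knocked down. Every gene whose symbol begins with Oas was taken from the deposited table of striatal RNA-seq counts, which gave 9 of its 1767 genes. They were Oasl2, Oasl1, Oas2, Oas3, Oas1e, Oas1c, Oas1b, Oas1g and Oas1a. The table itself was selected on the difference described here, since all 1767 genes have a deposited p-value under 0.05 for knockdown against control. The rise of the Oas genes was therefore part of how they were chosen, and their differences between the groups are given as a description. No p-value is printed for an Oas gene, and counts of Oas genes past a threshold stand beside the share of the listed genes that passed it and are not evidence of a difference.

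Oas enzymes bind double-stranded RNA and join ATP into short oligoadenylates, which act as signals in the defence of the cell against viruses. The genes are textbook targets of type I interferon, which acts through the factor ISGF3 on a promoter motif called the interferon-stimulated response element (ISRE). In the mouse the family includes many close copies of Oas1, and in the healthy brain its expression is generally low. NF-Y, the complex that was knocked down, binds the sequence CCAAT in promoters.

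Wild-type male C57BL/6 mice were injected at 6 weeks of age in the striatum of both hemispheres with an adeno-associated virus (AAV), and tissue was taken 3 weeks later. The AAV expressed the green fluorescent protein EmGFP with artificial miRNA under the CAG promoter, which is active in many cell types. In the NT2 control group (n = 6) the miRNA was non-targeting. In the NF-YA/YC knockdown group (n = 5) miRNAs against NF-YA and NF-YC were expressed. Both groups thus carried AAV and EmGFP, but their miRNAs were not the same, and uninjected striata were not analysed here. EmGFP-positive, PI-negative cells were sorted, which selects infected living cells of any type, and their cDNA was amplified before sequencing. The labels do not say whether each sample is 1 mouse, so the spread between samples may be partly technical. Controls carry the numbers 3, 5, 7, 9, 21 and 23, and knockdown samples the numbers 4, 6, 8, 10 and 22.

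The summed counts of the listed genes ranged from 1581757 to 3141324 per control sample and from 1954949 to 3010153 per knockdown sample, which covers the listed genes only and is not the depth of the libraries. Nfyc, one of the targeted genes, had normalized counts of 921 ± 173 (SD, n = 6) among controls and 806 ± 146 (SD, n = 5) after knockdown, and its log2 fold change was -0.19 (standard error 0.15), which did not pass edgeR's test (Benjamini-Hochberg adjusted p = 0.26). The lowest and highest values of Nfyc were 733 and 1206 in the controls and 603 and 976 in the knockdown samples, so the groups overlapped. With the authors' scaling of the samples these values were 804 and 1178 in the controls and 569 and 927 in the knockdown samples, again with overlap. That scaling also gave a lower median log2 fold change over all listed genes, of -0.27 against -0.13 by the TMM scaling used here. Nfyc too is in the table because of a deposited p-value under 0.05 on this contrast. By qRT-PCR of the sorted cells the authors reported reduced NF-YC, while the reduction of NF-YA was not significant. Nfya and Nfyb were not analysed here. None of the 8 neuronal and 14 striatal projection neuron markers looked for was analysed here, so the neuronal identity of the sorted cells was not checked here. In brain sections of both groups the authors found most EmGFP-expressing cells positive for the neuronal marker NeuN and a few negative. They also reported genes of glial cells among those that differed in the sorted cells. From their final list they left out non-neuronal genes of the striatum and genes with a highest count under 200. The table used here still holds 439 genes under that count, Oas1c and Oas1e among them.

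All 9 Oas genes lie on chromosome 5 (build mm9, named in the labels). Oasl2 (115346943 to 115362254) and Oasl1 (115373249 to 115387920) form a pair on the plus strand. The other 7 lie 5792421 bases further on, within 177193 bases, in the order Oas2 (121180342 to 121199857), Oas3 (121203107 to 121227668), Oas1e (121236321 to 121245539), Oas1c (121250208 to 121262523), Oas1b (121262644 to 121274169), Oas1g (121326151 to 121337607) and Oas1a (121346266 to 121357534). Only Oas1b of these 7 is on the plus strand, and it begins 120 bases from the end coordinate of Oas1c, so that the pair is arranged head to head. The table lists no other gene inside the block of 7. The 4 other listed genes within 1 Mb of either block, taken for their position, had smaller log2 fold changes, of -0.50 (standard error 0.18) for Mmab, 0.40 (standard error 0.14) for Sirt4, 0.46 (standard error 0.16) for Naa25 and -0.05 (standard error 0.09) for Atxn2.

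Promoter windows of 300 bases, from 250 bases before to 50 after the annotated start, were available for 6 of the 9 genes (Oasl2, Oasl1, Oas3, Oas1c, Oas1g and Oas1a) from RefSeq, build GRCm38.p6. The 5 with a motif are shown to place the letters bound by the interferon factor and by NF-Y relative to the start site. Each runs 5′ to 3′ on the gene's strand and ends at the base before the start, and capitals mark the motifs. The motifs searched on both strands were the ISRE (GAAANNGAAA), the CCAAT box (CCAAT) and the GAS element of interferon signalling (TTCNNNGAA). The stretches come from chr5:114923049-114923239 (plus strand, Oasl1), chr5:120777660-120777867 (minus strand, Oas3), chr5:120812515-120812664 (minus strand, Oas1c), chr5:120887614-120887763 (minus strand, Oas1g) and chr5:120907526-120907675 (minus strand, Oas1a).
Oasl1: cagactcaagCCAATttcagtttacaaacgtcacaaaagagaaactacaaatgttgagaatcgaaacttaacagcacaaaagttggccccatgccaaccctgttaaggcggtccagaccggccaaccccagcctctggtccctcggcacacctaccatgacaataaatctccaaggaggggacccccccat
Oas3: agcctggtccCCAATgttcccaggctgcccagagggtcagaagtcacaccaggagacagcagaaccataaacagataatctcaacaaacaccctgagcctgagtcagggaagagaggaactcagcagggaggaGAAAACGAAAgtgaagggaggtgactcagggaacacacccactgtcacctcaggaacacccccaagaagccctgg
Oas1c: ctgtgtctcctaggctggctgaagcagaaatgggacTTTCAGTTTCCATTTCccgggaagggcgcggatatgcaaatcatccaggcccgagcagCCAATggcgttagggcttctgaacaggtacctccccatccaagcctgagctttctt
Oas1g: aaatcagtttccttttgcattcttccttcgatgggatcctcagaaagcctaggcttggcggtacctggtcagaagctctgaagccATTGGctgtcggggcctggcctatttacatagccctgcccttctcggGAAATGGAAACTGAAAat
Oas1a: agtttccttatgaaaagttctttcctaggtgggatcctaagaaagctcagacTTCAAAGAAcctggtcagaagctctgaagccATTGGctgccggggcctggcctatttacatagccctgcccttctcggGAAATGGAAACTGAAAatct

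An ISRE was found in 4 of the 6 windows (Oas3, Oas1c, Oas1g and Oas1a), against 3.44% of the 32851 promoter windows in the RefSeq table. A CCAAT box was found in 5 of the 6, against 37.4% of all windows, and both motifs in 4, against 1.35%. In Oas1g and Oas1a a pair of overlapping ISREs, whose shared letters read as 1 run of capitals, begins at -18 and -20 from the start site, with a CCAAT box on the opposite strand at -65 and -67. In Oas1c the overlapping ISREs lie on the opposite strand at -114 and -108 and the CCAAT box is at -56. Oas3 has a single ISRE at -75 and a CCAAT box at -198. Oasl1 has CCAAT boxes at -181 and, on the opposite strand, at +44, and no ISRE by these letters. The only GAS match was in Oas1a, at -98, and 8.3% of all windows held one. No motif was found in the Oasl2 window. The windows of Oas1g and Oas1a were identical at 85.3% of aligned positions, whereas the other 14 pairs of windows ranged from 42.0% to 48.7%. These matches describe letters in the windows, and binding was not measured.

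All 9 Oas genes had higher mean normalized counts in the knockdown samples, with fitted log2 fold changes between 1.04 and 2.28 and a median of 1.42, while the median over all 1767 listed genes was -0.13. At an adjusted p-value under 0.05 all 9 passed edgeR's quasi-likelihood test as higher, as did 39.0% of the listed genes. Because the table was selected on this contrast, nothing is read from that count. The sorted cells are a mixture, and in such bulk samples fewer cells of a type and less RNA per cell cannot be told apart. Each normalized count is the estimated count over the sample's TMM factor, without correction for gene length.

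Oasl1, whose protein lacks synthetase activity and is known as a negative regulator of Irf7 translation, had the largest fitted difference among the well-counted members. Its normalized count had a lowest value of 121, a median of 675 and a highest of 1120 in the controls. In knockdown samples 4, 6, 8, 10 and 22 it was 3369, 3099, 2791, 1594 and 4246. Every knockdown sample lay above every control. The means were 624 ± 350 (SD, n = 6) and 3020 ± 964 (SD, n = 5), with a log2 fold change of 2.28 (standard error 0.43).

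Oasl2, an Oas-like protein that retains synthetase activity and carries ubiquitin-like domains, had control values with a lowest of 1468, a median of 3969 and a highest of 9501. The knockdown values were 11639, 9819, 8678, 5311 and 10128 in samples 4, 6, 8, 10 and 22. The groups overlapped, with 2 controls (3 and 23) above the lowest knockdown sample. The log2 fold change was 1.07 (standard error 0.42) between means of 4354 ± 3022 (SD, n = 6) and 9115 ± 2375 (SD, n = 5). Leaving out single samples moved this value between 0.89 (without control 7) and 1.45 (without control 3).

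Oas2 and Oas3 encode the larger synthetases, built from repeated Oas units. Oas2 had control values of 142 at the lowest, 739 at the median and 1426 at the highest, and knockdown values of 2094, 2814, 2496, 1449 and 3058 in samples 4, 6, 8, 10 and 22. The lowest knockdown sample stood just above the highest control, and the order of those samples turned with the authors' scaling. The log2 fold change of Oas2 was 1.67 (standard error 0.47). Oas3 had control values of 89.7 at the lowest, 389 at the median and 869 at the highest. Its knockdown values were 1750, 1678, 1096, 600 and 1481, so that control 3 lay above knockdown sample 10. The log2 fold change of Oas3 was 1.64 (standard error 0.46).

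Oas1a and Oas1g encode closely related small synthetases. Oas1a had control values of 336 at the lowest, 720 at the median and 1801 at the highest, and knockdown values of 2083, 1866, 1638, 1170 and 1820 in samples 4, 6, 8, 10 and 22. Its log2 fold change was 1.04 (standard error 0.35), and 0.87 (without control 7) to 1.41 (without control 3) with each sample left out in turn. Oas1g had control values of 243 at the lowest, 685 at the median and 1671 at the highest. Its knockdown values were 2197, 2182, 1976, 1175 and 1961, and its log2 fold change was 1.26 (standard error 0.38). In both genes 1 control, number 3, lay above the lowest knockdown sample.

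Oas1b is the gene known for resistance to flaviviruses, and common laboratory strains carry a truncated allele. Its control values were 59.9 at the lowest, 149 at the median and 231 at the highest. The knockdown values were 300.3, 280.5, 505, 241 and 268 in samples 4, 6, 8, 10 and 22, all above the controls by TMM but not by the authors' scaling. The log2 fold change was 1.13 (standard error 0.31).

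Oas1c and Oas1e, further Oas1 copies of the mouse, were the least counted members. Oas1c had control values of 22.8 at the lowest, 27.4 at the median and 61.2 at the highest, and knockdown values of 51.0, 101, 135, 64.1 and 96.5 in samples 4, 6, 8, 10 and 22. Control 3 lay above knockdown sample 4, and the log2 fold change was 1.42 (standard error 0.34). Oas1e had rounded counts that summed to 6 over the 6 controls and to 26 over the 5 knockdown samples. The ratio of these sums, scaled by the TMM factors of the samples, was 5.56 (exact 95% interval 2.24 to 16.5, which covers counting error only). The interval pools the reads of each group for a gene selected on this contrast, so it is no test of a difference. Its normalized counts did not exceed 1.55 in any control and lay between 1.66 and 8.90 in the knockdown samples, so that the nearest samples of the groups differ by less than 1 read.

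**Figure D1:**
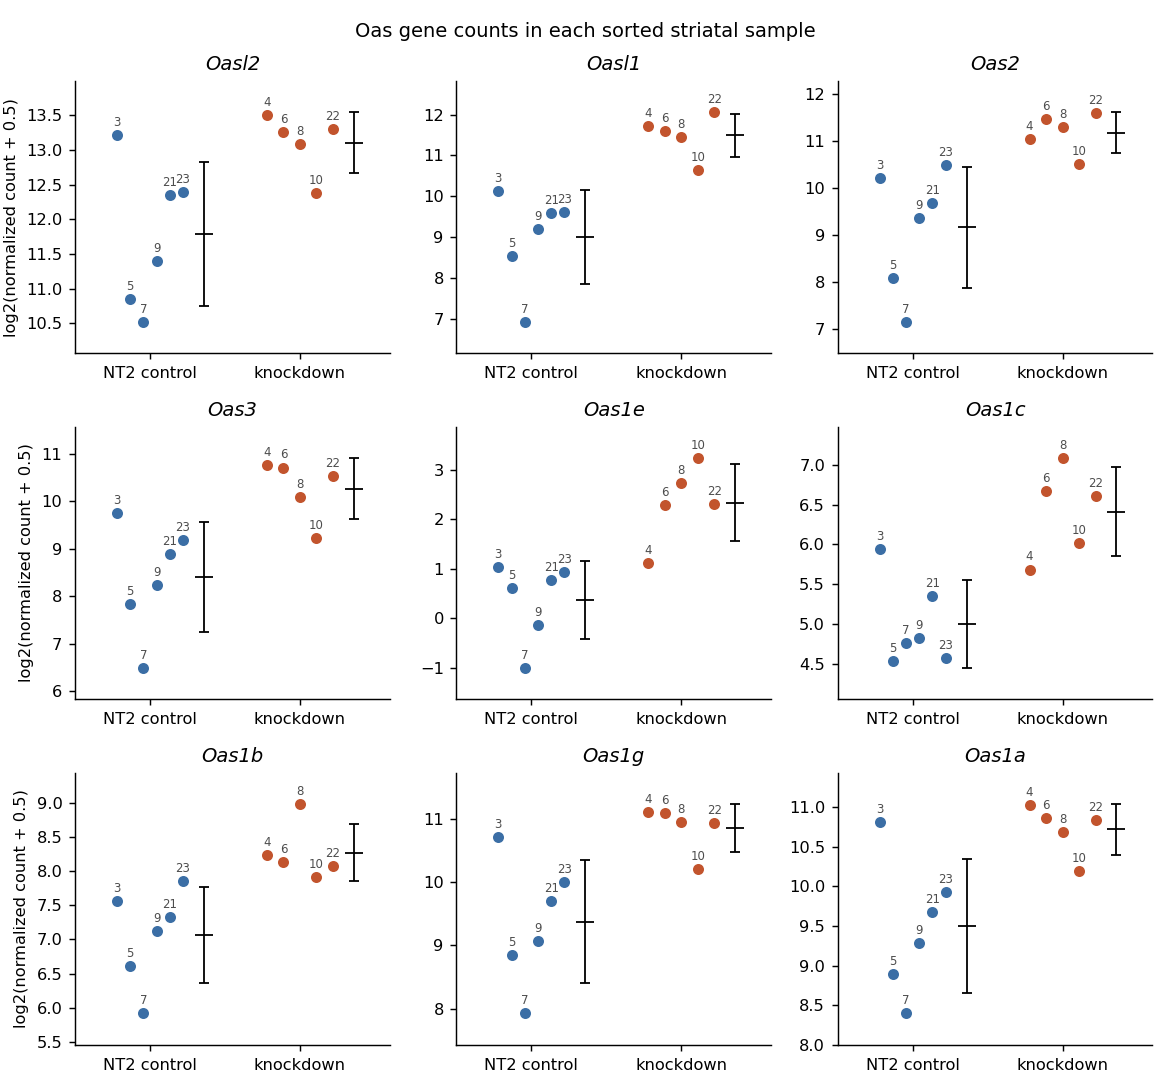
Each panel plots log2 of the normalized count plus 0.5 for 1 Oas gene, with a point per sample (its number beside it) and the mean and SD of the group to the right (6 NT2 controls in blue, 5 knockdown samples in orange). Control 3 is the highest control in 7 of the 9 panels, and the vertical scales differ between panels.

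Without overlap between the groups were 4 of the 9 genes, Oasl1, Oas2, Oas1e and Oas1b, and 11.4% of all listed genes were likewise higher in every knockdown sample. Nothing is read from this count either, since the rule used the same contrast. With the authors' scaling the number was 2 (Oasl1 and Oas1e), against 6.90% of the listed genes. Without control 3 it was 8, the exception being Oasl2, against 22.9% of the listed genes. Without knockdown sample 10 it was 6, against 15.4%. Control 3 had the smallest summed count of the 11 samples (1581757).

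The controls differed among themselves more than the knockdown samples in 7 of the 9 genes. The highest control was 10 times the lowest for Oas2, 9.68 times for Oas3, 9.29 times for Oasl1 and 6.47 times for Oasl2. Among the knockdown samples the same ratios were 2.11, 2.92, 2.66 and 2.19. On the log2 scale the SD of Oas2 was 1.29 in the controls and 0.43 in the knockdown samples, whereas for Oas1c it was 0.55 in both groups and for Oas1e 0.79 in both. Summed over the 9 genes, the normalized count was 16392 in control 3, 10417 in control 23, 9153 in control 21, 5566 in control 9, 3778 in control 5 and 2486 in control 7. In the knockdown samples 4, 6, 8, 10 and 22 the sum was 23486, 21845, 19321, 11612 and 23062. The family was thus spread over a range of 6.59-fold in the controls and 2.02-fold in the knockdown samples, and control 3 exceeded knockdown sample 10.

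Levels of different genes were compared per kilobase of the longest transcript. Oasl2 was the most abundant member in both groups, at a normalized count per kb of 1394 ± 968 (SD, n = 6) in the controls and 2919 ± 760 (SD, n = 5) in the knockdown samples. In the controls it was followed by Oas1a (445 ± 278), Oas1g (402 ± 258), Oasl1 (286 ± 160), Oas2 (189 ± 126), Oas3 (90.0 ± 59.2), Oas1b (79.5 ± 33.7), Oas1c (14.8 ± 6.5) and Oas1e (0.519 ± 0.337). Within single samples, neighbours stood in this order in 6 of 6 controls, except Oasl1 over Oas2 (5 of 6) and Oas3 over Oas1b (2 of 6). Before division by length Oas1a was below Oas1g in control 21 (815 against 834) and control 23 (976 against 1021). The order of these 2 genes in either group also depends on how their shared reads were divided, which is uncertain. By the SDs between samples only Oas1b and Oas1c, and Oas1c and Oas1e, were separated.

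In the knockdown samples the order was Oasl2, Oasl1 (1384 ± 442 per kb), Oas1g (960 ± 212), Oas1a (910 ± 182), Oas2 (601 ± 160), Oas3 (279.9 ± 101), Oas1b (174 ± 57.9), Oas1c (39.1 ± 14.4) and Oas1e (2.84 ± 1.48). Oasl1 moved from rank 4 to rank 2. Neighbours stood in this order in 5 of 5 knockdown samples, except Oas1g over Oas1a (4 of 5) and Oas3 over Oas1b (3 of 5). The SDs between samples of Oasl1 and Oas1g overlapped, as did those of Oas1g and Oas1a, of Oas1a and Oas2 and of Oas3 and Oas1b.

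The share of each gene in the summed level per kb does not depend on the scaling between samples. Oasl1 made up 9.96% ± 2.52 (SD, n = 6) of the family in the controls, with a range of 5.97% to 13.1%. In the knockdown samples it made up 18.8% ± 2.45 (SD, n = 5), with a range of 17% to 23.1%. The ranges of Oasl1 did not overlap. Oasl2 went from 47.0% ± 4.48 (SD, n = 6) to 40.0% ± 1.98 (SD, n = 5), Oas1a from 16% ± 2.29 to 12.7% ± 1.10, and the ranges overlapped for both genes. Oas1g held 13.9% ± 1.29 and 13.3% ± 0.953 in the same order of groups.

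**Figure D2:**
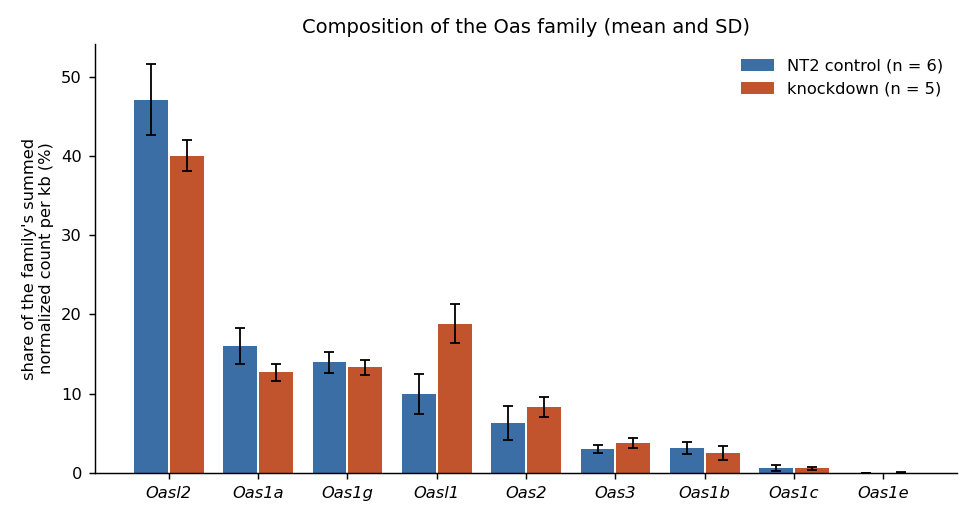
Bars give the mean share of each Oas gene in the family's summed normalized count per kb, in percent, with SD bars (6 controls in blue, 5 knockdown samples in orange). The share of Oasl1 is 9.96% in the controls and 18.8% in the knockdown samples, and that of Oasl2 is 47.0% and 40.0%.

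Paralogs can share reads, and the deposited counts are partly fractional. Of the 99 values of the family (9 genes in 11 samples), 76 were fractional, or 76.8%, against 53.7% of the 19437 values of the whole table. When values within 0.01 of a whole number were taken as whole, the shares were 74.7% and 45.7%. Oas3 and Oas1b were fractional in all 11 samples, as were 23% of the listed genes. Oas1g was fractional in 10 of 11 samples, Oasl2 and Oasl1 in 9, Oas2 and Oas1a in 8, Oas1e in 6 and Oas1c in 4.

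To set these shares beside the sequences, every stretch of 50 bases, the read length, in the longest transcript of each gene was looked up in all transcripts of other genes (GENCODE M21). Oas1a shared 57.6% of its 1836 windows and Oas1g 54.7% of its 1928, and 1057 of the windows of Oas1a were found in Oas1g. The aligned transcripts of Oas1a and Oas1g were identical at 90.6% of positions. Oas1c shared 16.3% of its windows, Oas1e 11.3%, Oas1b 3.41% and Oas3 0.792%, while Oasl2, Oasl1 and Oas2 shared none. The share of fractional values did not follow the share of windows, since Oasl2, Oasl1 and Oas2 were often fractional without a shared window and Oas1c was the least often fractional with 16.3%. Overlapping gene models and reads that match with mismatches were not tested.

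**Figure D3:**
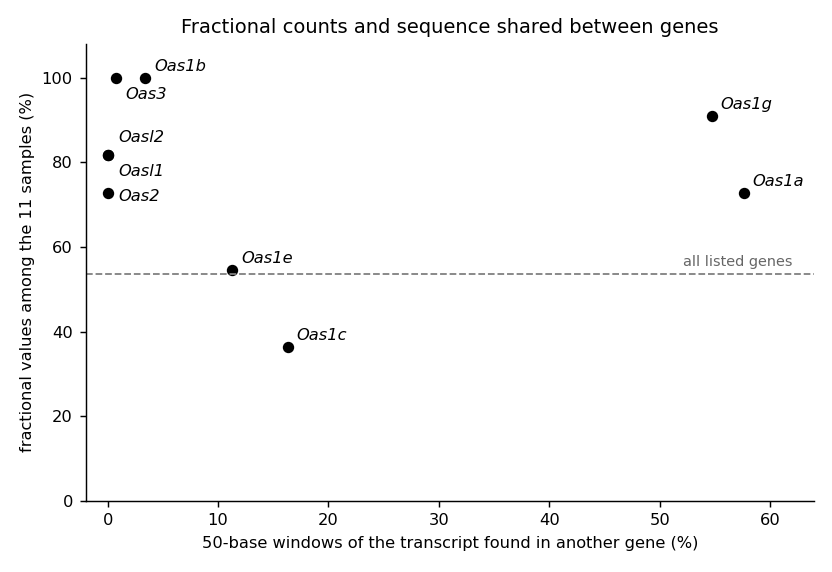
Each point is 1 Oas gene, placed by the percent of its 50-base windows found in another gene (horizontal) and the percent of its 11 values that are fractional (vertical), and the dashed line is the 53.7% of the whole table. Oas3 and Oas1b reach 100% with under 4% of windows shared, and Oas1g and Oas1a stand alone on the right at 54.7% and 57.6%.

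The division of reads between Oas1a and Oas1g is uncertain for this reason. The ratio of the estimated count of Oas1a to that of Oas1g lay between 0.957 and 1.38 in the controls and between 0.829 and 0.996 in the knockdown samples. These ranges overlapped.

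The Oas genes followed each other across the 11 samples after the group means were removed from log2 counts. Over the 36 pairs Pearson's r ranged from 0.35 to 0.98 with a median of 0.79, and the median over all pairs of listed genes was near 0. Among the 7 members other than Oas1c and Oas1e the range was 0.76 to 0.98 with a median of 0.91. These points share their libraries, and the values of r are a description. Oas1g was nearest to the mean of the other members (r = 0.97), Oas1b had r = 0.85, and Oas1c and Oas1e, the members with few counts, had r = 0.50 and 0.47. The mean set against Oas1g includes Oas1a (r = 0.98 with Oas1g), and the part of their shared reads in these values was not tested. High values were also found between the Oasl pair and the distant Oas block, with r = 0.98 for Oasl2 and Oas1a and r = 0.96 for Oasl1 and Oas3.

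**Figure D4:**
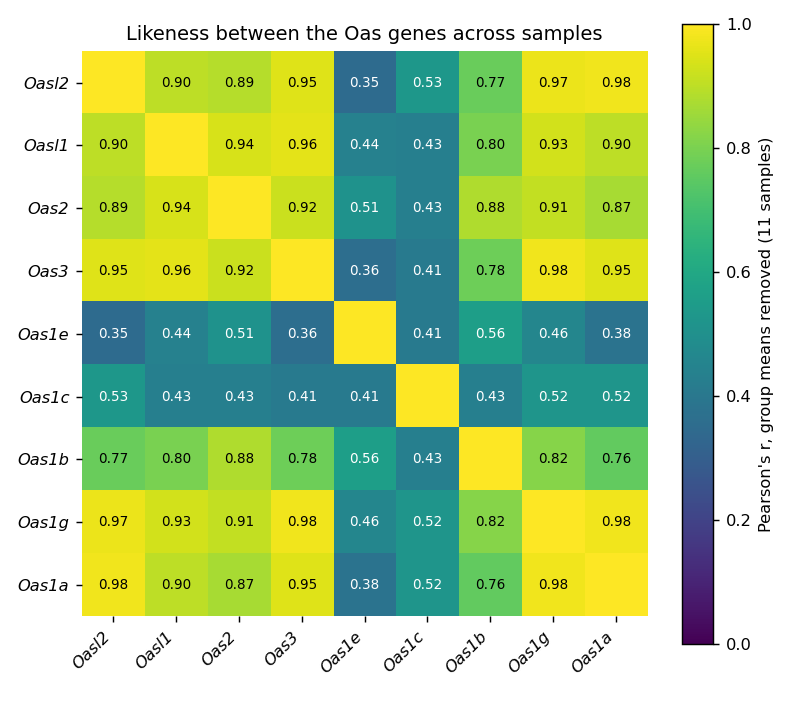
Each cell gives Pearson's r between the log2 normalized counts of 2 Oas genes over 11 samples after the group means were removed, on a colour scale from 0 to 1. The rows of Oas1e and Oas1c hold the low values (0.35 to 0.56), and the other 7 genes have r of 0.76 or more with each other.

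The 5 listed genes outside the family whose within-group pattern was most like the mean of the Oas genes, among 1758 ranked over 11 samples, were Pydc4 (r = 0.99), Trim30a (r = 0.98), Irf7 (r = 0.97), I830012O16Rik (r = 0.97) and Ifit3 (r = 0.97). Their log2 fold changes were 1.5 (standard error 0.34), 0.85 (standard error 0.28), 1.38 (standard error 0.43), 1.28 (standard error 0.38) and 1.24 (standard error 0.40). Irf7 is the interferon regulatory factor that amplifies type I interferon, and Ifit3 is an interferon-induced gene.

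Of a list of 32 genes that act beside Oas in RNA sensing and interferon signalling, 11 were in the table and 21 were not analysed here. All 11 had higher mean counts in the knockdown samples, 10 passed the edgeR test as higher and 0 as lower, with a median log2 fold change of 0.98 and a range of 0.51 to 1.38. The same 39.0% of the listed genes passed as higher, and these genes too are in the table because of this contrast.

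Ifnb1, which encodes interferon beta, had few counts, 55.3 ± 21.1 (SD, n = 6) and 126 ± 60.2 (SD, n = 5), and its groups overlapped (log2 fold change 1.19, standard error 0.36).

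The cytosolic RNA sensors differed in how far the groups stood apart. Ddx58, which encodes RIG-I, went from 1213 ± 421 (SD, n = 6) to 2649 ± 281 (SD, n = 5) without overlap (log2 fold change 1.13, standard error 0.21). Ifih1, which encodes MDA5, was higher by 0.88 on the log2 scale (standard error 0.37) and was the gene of the 11 that did not pass (adjusted p = 0.057 from edgeR). Dhx58, encoding LGP2, had 0.98 and Eif2ak2, encoding the RNA-dependent kinase PKR, had 0.83 on the log2 scale. Adar, which edits double-stranded RNA, had a log2 fold change of 0.68.

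Of the regulators, Irf7 went from 4793 ± 3209 (SD, n = 6) to 12456 ± 3220 (SD, n = 5), Usp18 had a log2 fold change of 1.18, Isg15 of 1.12, Trim25 of 0.81 and Socs3, an inhibitor of cytokine signalling, of 0.51. Among the 11 genes, Ddx58 and Socs3 had no overlap between the groups, and 11.4% of all listed genes were higher in every knockdown sample. For Ddx58 the highest control was 1866 and the lowest knockdown sample 2312. For Socs3 these values nearly met, at 8477 and 8483.

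The markers of other cell types that are in the table were lower in the knockdown samples. For each cell type the ranges of the summed counts overlapped between the groups. These markers are in the table because of a deposited p-value under 0.05 on this contrast, and 21.3% of all listed genes passed the edgeR threshold as lower. Of 12 astrocyte markers 6 were in the table, all lower in the knockdown samples (5 past the edgeR threshold, log2 fold changes of -1.54 to -0.15), and their normalized counts summed to between 31691 and 81914 per control and to between 21061 and 37758 per knockdown sample. Of 9 vascular markers 6 were in the table, all lower and 4 past the threshold, with sums of 5730 to 9620 and 3944 to 6920. The only microglial marker of 14 in the table, P2ry12, did not pass the threshold. It had a log2 fold change of -0.35 and sums of 13336 to 25660 and 12841 to 16015. The only oligodendrocyte marker of 12, Ugt8a, had -0.50 and sums of 9979 to 20617 and 10136 to 11871. No listed marker was at 0 in any sample.

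A glial score, the mean centred log2 level of the 8 glial markers in the table, was 0.37 ± 0.54 (SD, n = 6) in the controls and -0.44 ± 0.31 (SD, n = 5) in the knockdown samples. The scores of controls 3, 23, 21, 9, 5 and 7, in falling order of their Oas sums, were -0.45, 0.04, 1.04, 0.24, 0.76 and 0.56. Those of knockdown samples 4, 22, 6, 8 and 10, in the same falling order, were -0.84, -0.1, -0.67, -0.37 and -0.2. Knockdown sample 22 thus joined the highest score of its group to an Oas sum of 23062, near the highest, and knockdown sample 10, with the lowest Oas sum, had the next highest score. Control 21 had the highest score of all and the third highest Oas sum of the controls. In the other direction, control 3 and knockdown sample 4 had the highest Oas sum and the lowest score of their groups. Controls 5 and 7, with the lowest Oas sums, had scores of 0.76 and 0.56. The relation of score and sum was not tested.

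When the score entered the fit as a covariate, 0 of the 9 Oas genes passed edgeR at an adjusted p-value under 0.05, against 3.74% of the listed genes called higher, and 3 of the 9 had an unadjusted p-value under 0.05, against 18.6% of the listed genes with such a value and a higher level. All 9 log2 fold changes stayed above 0 and their median was 0.97. Oasl1 had 1.87 (standard error 0.54), Oas1c 1.22 (standard error 0.47) and Oas2 1.17 (standard error 0.57), whereas Oasl2 had 0.48 (standard error 0.47) and Oas1a 0.41 (standard error 0.35). With this covariate 0 of the 11 pathway genes passed. The score's 8 markers, 6 of them astrocytic, are in the table because of this same contrast, and the score and the group vary together. This fit therefore cannot separate glial cells from the group, and their part in the difference was not tested.

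The sample numbers fall into a series from 3 to 10, with 4 samples per group, and a series from 21 to 23, with 2 controls and 1 knockdown sample. Within the first series the median log2 fold change of the Oas genes was 1.46, and 3 of the 9 passed (Oasl1, Oas2 and Oas1b), against 8.49% of the listed genes called higher. The second series holds too few samples for a fit. With the authors' scaling in the fit, the log2 fold changes of the Oas genes were between 0.92 and 2.16 and all 9 passed, as did 32.2% of the listed genes.

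**Figure D5:**
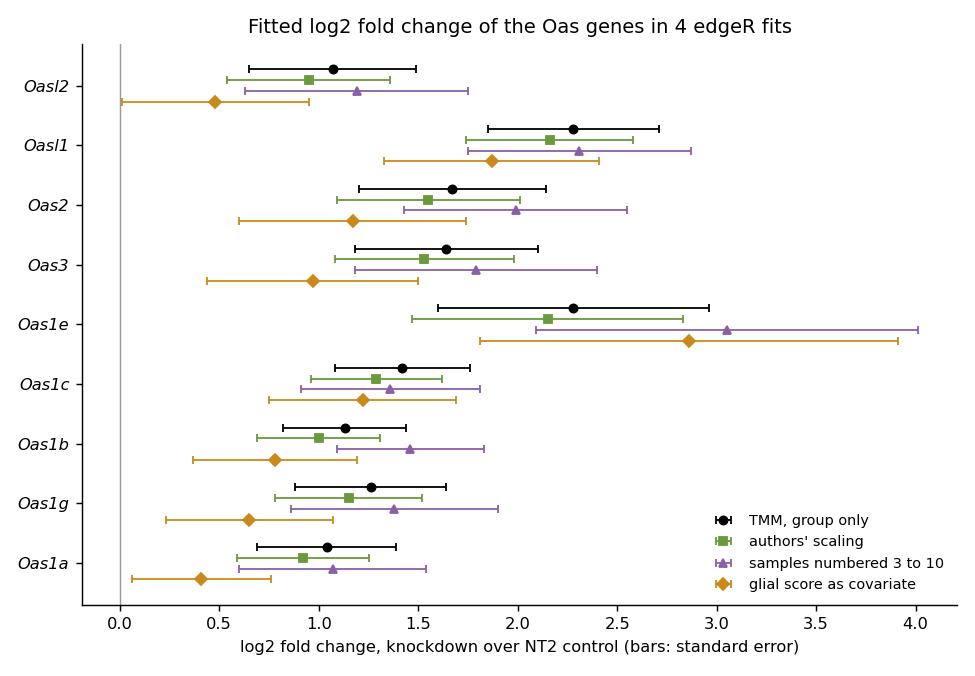
Points give the fitted log2 fold change (knockdown over control) of each Oas gene with its standard error in 4 edgeR fits, by TMM with the group only, by the authors' scaling, in the samples numbered 3 to 10, and with the glial score as a covariate. All points lie to the right of 0, and the points with the glial score are the lowest of the 4 for every gene but Oas1e.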

How the data were processed

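RNA-seq data of sorted striatal cells were used from 6 controls (NT2) and 5 knockdown samples (NF-YA/YC), grouped by their labels. For 1767 genes the authors deposited estimated counts from Strand NGS, without normalization and in part fractional, and log2 values after a scaling of each sample and subtraction of the gene's median. The authors' scaling factors were computed back from both over 1247 genes that exceeded 50 counts in all samples. The deposited p-values were read only to see that all 1767 are under 0.05, and the deposited fold changes were not used. The build mm9 is named in the labels, and the annotation is not given in the sources used here.

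Counts were rounded and fitted with edgeR 4.0.16 (R 4.3.3) by its quasi-likelihood test after TMM normalization over the listed genes, with the group as the only term and Benjamini-Hochberg adjustment over 1767 genes. A gene was called at an adjusted p-value under 0.05. Because the genes had been selected by p-value, most genes behind TMM and the adjustment differ between the groups. A count of 0.5 was added before log2. Counts of a gene limit its precision, and the full depth of the libraries was not analysed here. Pairs of samples within a group differed by 21.5 to 170.9 chi-square units per degree of freedom over 25 pairs, so all were kept as separate samples. Promoter windows came from RefSeq (GRCm38.p6) and transcripts from GENCODE M21, in which all 9 Oas genes were matched by symbol, and were aligned with Biopython. The genes named are the Oas genes, the NF-Y subunits, the 5 genes most like the Oas mean, and the pathway and marker lists, of which 1 pathway gene is not reported here, and the 4 listed genes near the Oas blocks, chosen by position after the data were seen. The members and lists were chosen with earlier results of these data known.

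Alternatives were DESeq2 1.42.0, its size factors, the authors' scaling, a highest count of at least 200, unrounded counts, the number series or the glial score as covariate, leaving out each sample, and, chosen after seeing the data, the samples numbered 3 to 10 only.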

Additional observations from a re-analysis of the deposited data

Results flagged for a closer look

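In the 5 knockdown samples the normalized count of Oas1b was 505.4 in sample 8, set apart from the next highest by 0.78 of the group's range. The normalized count of Oas1g was 1175 in knockdown sample 10, set apart from the next lowest by 0.77 of the range. In all, 22 groups of values were looked at, those of the 9 genes among them, and these 2 were set apart. Chance sets about 5% of such groups apart in this way.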

How the results depend on the processing

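No paired analysis was possible because the groups share no replicate number. The number of listed genes called was 1066, and it was 82 with the glial score as a covariate, 643 with a highest count of at least 200 (1328 genes tested) and 207 in the samples numbered 3 to 10, where fewer samples enter. With each sample left out in turn it was 721 to 1121. The number of Oas genes called was 9 (39.0% of the listed genes were called higher). It was 0 with the glial score (3.74%) and 3 in the samples numbered 3 to 10 (8.49%). With a sample left out it was 7 to 9, where 511 to 680 of the 1767 listed genes were called higher. A highest count of at least 200 removes Oas1e and Oas1c, and the other 7 were called, as were 463 of the 1328 genes tested as higher. Of the pathway genes 10 were called, and 0 with the glial score, 1 in the samples numbered 3 to 10, and 7 to 11 with a sample left out. The shares and counts of listed genes called higher in these fits are those given for the Oas genes. The median log2 fold change of the Oas genes was 1.42 and 1.25 to 1.66 with a sample left out. The number of Oas genes without overlap was 4 (11.4% of the listed genes), and it was 2 with the authors' scaling (6.90%). With a sample left out it was 4 to 8, 8 being the value without control 3 (22.9%) and 6 that without knockdown sample 10 (15.4%). Over 19 alternatives, 169 log2 fold changes of single Oas genes were fitted. All 169 kept their direction, with values of 0.41 to 3.05. The Oas gene calls that ended with 1 sample left out were of Oasl2, without every sample but control 3 and knockdown sample 10, and of Oas1a, without control 5, knockdown sample 4 or knockdown sample 6. These calls describe genes selected on the same contrast and do not measure how firm a rise is. The cause of the lower numbers with the glial score was not tested.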
